A study of Mus musculus with 14 samples.

Results

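The genes described here are the T cell receptor, its co-receptors and signalling proteins, and the surface and lineage genes that mark T cells. They comprise 36 genes, listed by name for their known roles and matched to the spleen count table by Ensembl identifier, out of 49315 genes there. All 36 passed the filter on low counts in the spleen, among 16911 genes tested, and 23 of the 36 were listed in the ovary table, where 18504 of 18603 genes were tested.

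RNA-seq was performed on whole spleens and ovaries of young mouse pups that lack ZFP36L2 throughout the body and on those of wild-type littermates. The knockout animals (L2-fKO) were Zfp36l2-/-;CMV-Cre, made by crossing Zfp36l2 fl/fl mice, in which loxP sites surround exon 2, to a CMV-Cre line, whose promoter turns on Cre early enough for deletion throughout the body and the germ line. The WT animals carried both wild-type Zfp36l2 copies together with the same Tg.CMV-Cre transgene, so that Cre is shared by every library. There were 4 WT spleens (2 females, 2 males) and 4 L2-fKO spleens (1 female, 3 males). The females were WT spleens 1 and 3 and L2-fKO spleen 3. The ovaries were 3 WT and 3 L2-fKO, and 1 L2-fKO animal gave both a spleen and an ovary. The study describes the spleens as age-matched pairs, and the labels do not say which animals were matched. The pups were from the early days after birth, the age of each animal is not in the sources used here, and the study describes the L2-fKO pups as anemic with low counts of other blood cells. Each library is one animal, and in RNA from whole organs fewer T cells and less T cell RNA per cell cannot be told apart.

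ZFP36L2 is an RNA-binding protein that binds adenine-uridine rich elements in 3′UTRs and promotes decay of the bound mRNA. The T cell receptor is a dimer of an α and a β chain that binds peptide on MHC molecules and signals through the associated CD3 chains and the ζ chain (Cd247). The kinase LCK, brought in by the co-receptor CD4 or CD8, phosphorylates these chains, the kinase ZAP70 docks on them, and ZAP70 phosphorylates the scaffold LAT, on which further adaptors assemble. In newborn mice the spleen is being populated by T cells arriving from the thymus, and it is at the same time a site of red cell and platelet production.

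The study's 7-base ARE, UAUUUAU, was searched for in the sense strand of each gene's 3′UTR on GRCm38, taking the longest where several are annotated. It was present in 13 of the 36 members (36.1%), compared with 4195 of 14227 tested genes with an annotated 3′UTR (29.5%), and the shorter AUUUA, which lies inside it, was present in 21 of 36 (58.3%) compared with 69.9%. The members' 3′UTRs had a median length of 1121.5 nt, against 1331 nt over those tested genes. The 7-base motif occurred at least 2 times in 6 members. The sites shown are those of Ubash3a and Cd4, the members with this motif that passed the test in an organ, and of Il7r, Cd28 and Cd40lg, surface genes with 2 sites each. Capitals mark the motif and the flanks are up to 11 bases on each side, written as RNA 5′ to 3′.
Ubash3a, chr17:31242053-31242081 (+): uccuggcauccUAUUUAUuauauuauauu
Cd4, chr6:124866019-124866047 (-): ccccaucagcuUAUUUAUucuucgcugcu
Il7r, chr15:9507486-9507514 (-): uucaaauugacUAUUUAUccagcacuaua
Il7r, chr15:9506373-9506401 (-): uuuccucuuggUAUUUAUaaaggaaaacc
Cd28, chr1:60773205-60773233 (+): gguauuuuucuUAUUUAUugguuuauugc
Cd28, chr1:60773333-60773359 (+): ccugcaauaaaUAUUUAUucauugacu
Cd40lg, chrX:57223668-57223696 (+): guugaacugccUAUUUAUaacccuaggau
Cd40lg, chrX:57223702-57223730 (+): ucauggagaacUAUUUAUuauguaccccc
The site of Ubash3a starts at base 686 of a 3′UTR of 5514 nt and that of Cd4 at base 209 of 1553 nt. The Cd40lg sites start at bases 92 and 126 of a 3′UTR of 455 nt, and the Cd28 sites at bases 3431 and 3559 of 3574 nt. The remaining members with the motif were Cd247, Themis, Thy1, Bcl11b, Satb1, Tox, Gata3 and Tbx21. The 3′UTR of Lat, of 225 nt, and those of Foxp3, Ctla4 and Tigit held no copy.

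The spleen libraries held 39138010 to 45167464 counts and the ovary libraries 31052510 to 44270070 recovered reads, and the members took 0.0307% to 0.0843% of the spleen counts. Zfp36l2 itself was at 4362 to 7394 normalised counts in the WT spleens and 278 to 405 in the L2-fKO spleens (log2 fold change -4.08, SE 0.21, edgeR adjusted p = 8.84e-06). In the ovaries it was at 4745 to 4906 in WT and 758 to 1011 in L2-fKO, where the mean was 19.1% of WT (log2 fold change -2.40, SE 0.12, limma adjusted p = 0.000578). The lymphocyte genes, and markers of other cells, differed widely between spleens of 1 genotype. WT spleen 3 was the lowest WT library for 34 of the 36 members, at a median of 39.4% of the mean of the other WT libraries, and L2-fKO spleen 4 was the highest knockout library for 34 of 36, at a median of 171.9% of the others. These 2 libraries were likewise lowest and highest of their group in all 8 B cell markers and in all 7 tested NK cell markers. They also stood at the ends of their group outside the lymphocytes. WT spleen 3 was lowest for 7 of 8 macrophage and all 7 megakaryocyte markers and highest for 7 of 8 neutrophil markers. L2-fKO spleen 4 was highest for all 8 macrophage markers and lowest for all 9 erythroid markers. At the opposite ends, WT spleen 1 was the highest WT library for 32 of 36 members (median 1.51 times the others), for all 8 B cell markers (2.84 times) and for all 7 NK cell markers, and L2-fKO spleen 3 the lowest knockout library for 29 members (0.589 times) and all 8 B cell markers.

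**Figure D1:**
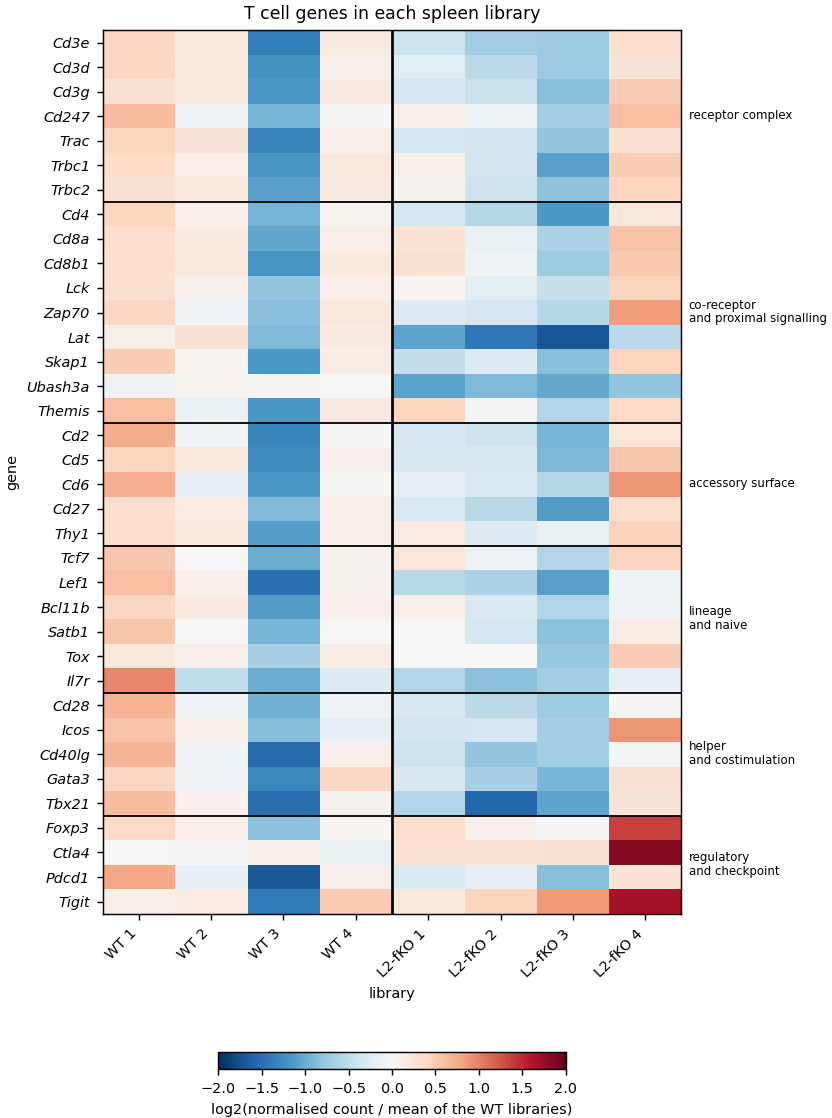
Log2 of the normalised count over the mean of the WT libraries (colour) for the 36 members (rows, by role) in the 8 spleen libraries (columns). WT spleen 3 is lowest among WT libraries for 34 of 36 genes and L2-fKO spleen 4 highest among L2-fKO libraries for 34 of 36, whereas for Ubash3a all 4 WT libraries lie near 0 and all 4 L2-fKO libraries below.

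Most T cell genes did not pass the test between L2-fKO and WT spleens, and 2 proximal signalling genes, Lat and Ubash3a, were lower. By edgeR's quasi-likelihood test at an adjusted p below 0.05, 0 of 36 members were higher and 2 were lower, against 6.89% of all tested genes higher and 6.51% lower. DESeq2 gave the same counts, and 3 members had an unadjusted p below 0.05, against 29% of all genes. With the further demand of a log2 fold change beyond 1 in size, Lat was the one member called lower and 0 were called higher, against 3.11% of all genes called lower and 2.9% higher. The members' median log2 fold change was -0.19 (range -1.10 to 0.91), with 13 above and 23 below 0, and the median over all tested genes was -0.02. The median SE of a member's log2 fold change was 0.35, compared with 0.19 over all tested genes. The groups did not overlap for Ctla4, higher in L2-fKO, and for Ubash3a, lower, where 9.61% and 10.8% of all tested genes had such a pattern in those directions.

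The receptor complex genes were at overlapping levels. Cd3e, an invariant signalling chain, was at 979, 848, 280.3 and 828 normalised counts in WT spleens 1 to 4 and at 542, 453, 449 and 912 in L2-fKO spleens 1 to 4. The highest knockout library lay within the range of the WT libraries and the lowest library of all was a WT spleen. The log2 fold change was -0.32 (SE 0.36, edgeR adjusted p = 0.607). Of the 7 genes of the complex, 6 had a log2 fold change below 0 and 1 above, with a median of -0.19, and their adjusted p values by edgeR ran from 0.607 for Cd3e to 0.935 for Cd247, the ζ chain. The constant region of the α chain, Trac, ranged from 401 to 1352 normalised counts in WT and from 592 to 1241 in L2-fKO (log2 fold change -0.24, SE 0.35). Trbc1 and Trbc2, the near-identical constant regions of the β chain between which reads can be split in counting, differed by -0.10 (SE 0.37) and -0.11 (SE 0.33) on the log2 scale.

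The co-receptors were likewise within the spread of the libraries. Cd4, the co-receptor of helper and regulatory T cells, was at 1532, 1244, 601 and 1189 normalised counts in WT and at 897, 768, 517 and 1330.2 in L2-fKO spleens. All knockout libraries but L2-fKO spleen 4 were below all WT libraries but WT spleen 3. The log2 fold change was -0.38 (SE 0.32, edgeR adjusted p = 0.471). Cd8a, the α chain of the co-receptor of cytotoxic T cells, was at 1234, 1117, 474 and 1063 in WT and at 1171, 885, 628 and 1438 in L2-fKO spleens. The 2 ranges overlapped over most of their length, with a log2 fold change of 0.08 (SE 0.32, edgeR adjusted p = 0.89), and Cd8b1, the β chain, gave 0.08 (SE 0.34). The kinases Lck and Zap70 had log2 fold changes of -0.00 (SE 0.25) and 0.03 (SE 0.35), the adaptor Skap1 -0.20 (SE 0.35) and Themis, a signalling protein of thymocyte selection, 0.11 (SE 0.35).

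Lat (chr7:126363824-126369570, minus strand, ENSMUSG00000030742) was at 1538, 1754, 770.3 and 1616 normalised counts in WT spleens 1 to 4 and at 685, 526, 436 and 993 in L2-fKO spleens 1 to 4. All L2-fKO libraries were below WT spleens 1, 2 and 4, and L2-fKO spleen 4 was above WT spleen 3. Lat was lower in L2-fKO, from 1419.5 ± 442 to 659.8 ± 245 (SD, n = 4 each), with a log2 fold change of -1.10 (SE 0.30, edgeR adjusted p = 0.039). The call was lost, with adjusted p values up to 0.111 by edgeR, when library totals replaced TMM or when any library other than WT spleen 3 or L2-fKO spleen 4 was left out, and the log2 fold change stayed between -1.58 and -0.95. Among the males alone it was -1.20 (SE 0.25, edgeR adjusted p = 0.0273).

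Ubash3a (chr17:31207873-31246892, plus strand, ENSMUSG00000042345) encodes a T cell suppressor of receptor signalling, also named STS-2. It was at 643, 697, 691 and 681 normalised counts in WT and at 322, 367, 335 and 391 in L2-fKO spleens. Every L2-fKO library was below every WT library, and WT spleen 3 and L2-fKO spleen 4 lay close to the others of their group. Ubash3a was lower in L2-fKO, from 678 ± 24.1 to 353 ± 31.2 (SD, n = 4 each), with a log2 fold change of -0.94 (SE 0.12, edgeR adjusted p = 0.000916). In all 18 alternative fits it had an adjusted p below 0.05, with log2 fold changes between -0.99 and -0.90. In WT spleen 3 it stood at 103% of the mean of the other WT libraries, where the median member stood at 39.4%.

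**Figure D2:**
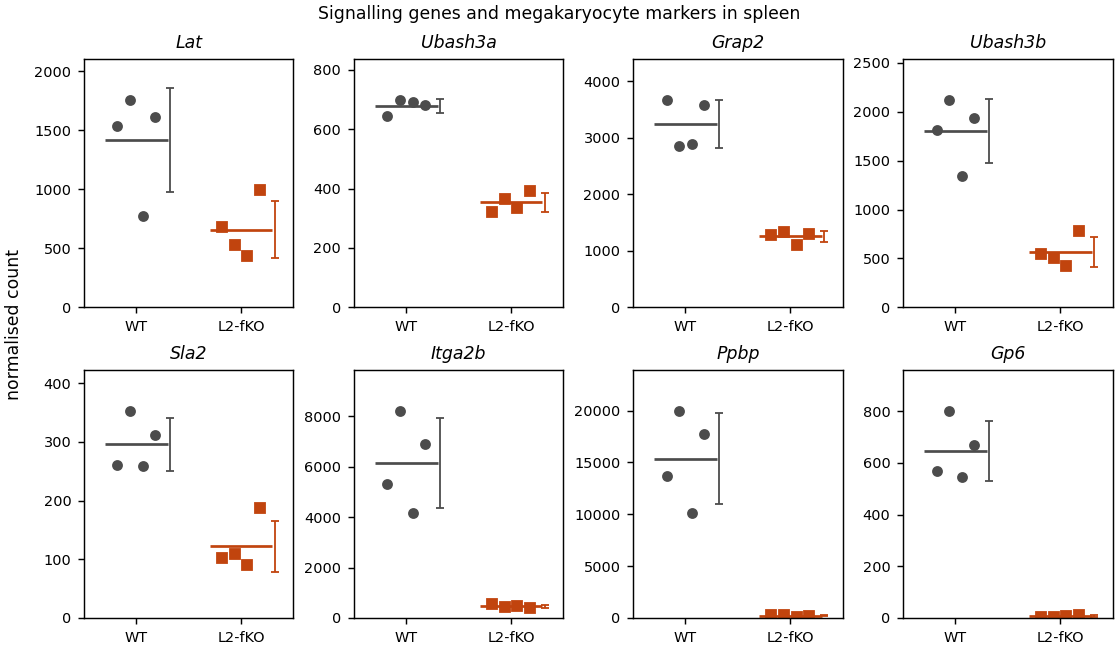
Normalised counts of Lat, Ubash3a and other receptor signalling genes and of the megakaryocyte markers Itga2b, Ppbp and Gp6 in each spleen library, with the mean (line) and SD (bar) of each group (n = 4). The groups overlap for Lat, where WT spleen 3 (770.3) lies below L2-fKO spleen 4 (993), and are apart for Ubash3a (643 to 697 in WT, 322 to 391 in L2-fKO) and for the other genes plotted.

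Lat and several of its partners are also used by platelets and their precursors, the megakaryocytes, as is known from the signalling of the collagen receptor GP6. All 7 megakaryocyte markers reported here were lower in L2-fKO spleens, with log2 fold changes from -6.41 to -1.03 (median -3.73), and their summed level was 23953.9 to 46079.4 in WT and 2197.34 to 3226.28 in L2-fKO libraries. Gp6 was at 571, 801, 548 and 668 normalised counts in WT and at 4.18, 5.54, 7.6 and 11.9 in L2-fKO spleens, and Ppbp, a platelet chemokine, at 10085 to 19949.6 and 119 to 331. The part of megakaryocyte RNA in the lower Lat and Ubash3a, and in the signalling genes described next, was not tested.

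Among 36 further genes of T cell receptor signalling, 1 was higher and 3 were lower at an adjusted p below 0.05 by edgeR, where 6.89% of all tested genes were higher and 6.51% lower, and their log2 fold changes had a median of -0.15. Grap2, the adaptor GADS that binds LAT, was at 3661, 2855, 2893 and 3576 normalised counts in WT and at 1279.8, 1334, 1104 and 1299 in L2-fKO spleens. All L2-fKO libraries were far below the WT libraries (log2 fold change -1.37, SE 0.12, edgeR adjusted p = 0.000172). Ubash3b, the broadly expressed paralog of Ubash3a, was lower by a log2 fold change of -1.67 (SE 0.20, edgeR adjusted p = 0.000886), from 1347 to 2116 in WT to 426 to 777 in L2-fKO. The adaptor Sla2, a negative regulator of the receptor, gave -1.27 (SE 0.25, edgeR adjusted p = 0.00955). The transcription factor Nfatc3 was the gene of this list that was higher, at 5144 to 6866 in WT and 7906 to 8639 in L2-fKO (log2 fold change 0.52, SE 0.11, edgeR adjusted p = 0.0156). The number of lower genes was 6 without WT spleen 3 (7.46% of all genes lower), 8 without L2-fKO spleen 4 (9.2%), 14 without both (13.8%) and 11 with the replicate number as a block (10.1%), and the higher gene was lost without WT spleen 2 or 4 or L2-fKO spleen 1 or 2. Grap2 and Ubash3b are, like Lat, known from platelets.

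Of the accessory surface genes, 0 of 5 passed the test by edgeR or DESeq2, and 0 had an unadjusted p below 0.05. Of all tested genes 13.4% passed by edgeR in either direction and 29% had an unadjusted p below 0.05. Cd2, an adhesion receptor, had a log2 fold change of -0.30 (SE 0.38), Cd5 and Cd6, inhibitory scavenger-type receptors, -0.15 (SE 0.38) and 0.07 (SE 0.41), the costimulatory receptor Cd27 -0.31 (SE 0.33) and Thy1, a surface glycoprotein, 0.08 (SE 0.29). Their ranges overlapped in every case.

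The lineage and naive T cell genes also overlapped between genotypes, with 0 of 6 past the test by edgeR or DESeq2 and 0 at an unadjusted p below 0.05. The shares over all tested genes by edgeR were 13.4% and 29%. Tcf7, the transcription factor TCF1 that starts the T cell programme, was at 3509, 2407, 1209.6 and 2534 normalised counts in WT and at 2872, 2257, 1614 and 3279 in L2-fKO spleens. The groups covered nearly the same range (log2 fold change 0.05, SE 0.31, edgeR adjusted p = 0.93). Il7r, the receptor chain through which IL-7 keeps naive T cells alive, was at 1019, 373, 264 and 438 in WT and at 349.7, 298, 326 and 469 in L2-fKO spleens. WT spleen 1 was more than 2 times any other library, and its removal turned the log2 fold change from -0.54 (SE 0.37, edgeR adjusted p = 0.373) to 0.01. Lef1, the relative of Tcf7, ranged from 302 to 1297 in WT and 402 to 801 in L2-fKO (log2 fold change -0.55, SE 0.37, edgeR adjusted p = 0.367), and passed the test at -0.83 without WT spleen 3 (edgeR adjusted p = 0.0441). Bcl11b, required for T cell commitment, the chromatin organiser Satb1 and the factor Tox had log2 fold changes of -0.19 (SE 0.29), -0.21 (SE 0.29) and 0.00 (SE 0.28).

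Of the helper and costimulation genes, 0 of 5 passed the test by edgeR or DESeq2, and 0 had an unadjusted p below 0.05. The shares over all tested genes by edgeR were 13.4% and 29%. The costimulatory receptor Cd28 had a log2 fold change of -0.35 (SE 0.31), Icos 0.01 (SE 0.39) and Cd40lg, the ligand through which helper T cells act on B cells, -0.45 (SE 0.40). Gata3 and Tbx21, the master factors of type 2 and type 1 helper cells, gave -0.31 (SE 0.38) and -0.57 (SE 0.47).

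The log2 fold changes of the regulatory and checkpoint genes had a median of 0.71, with 3 of 4 above 0 and 0 of 4 past the test by edgeR or DESeq2. At an unadjusted p below 0.05 there was 1, Ctla4. The shares over all tested genes by edgeR were 13.4% past the test and 29% at an unadjusted p below 0.05. Foxp3 (chrX:7573644-7595245, plus strand), the factor that defines regulatory T cells, was at 121, 100.01, 51.7 and 94 normalised counts in WT and at 115, 97.5, 89.1 and 236 in L2-fKO spleens. L2-fKO spleen 4 was far above all others, and the other knockout libraries were within the WT range. The log2 fold change was 0.56 (SE 0.36, edgeR adjusted p = 0.341), and 0.13 without L2-fKO spleen 4. Ctla4, an inhibitory receptor that competes with CD28, was at 51.9, 52.5, 55.7 and 47.5 in WT and at 62.6, 63.1, 64.1 and 186 in L2-fKO spleens. All L2-fKO libraries were above all WT libraries, 3 of them by a small margin, and the log2 fold change of 0.86 (SE 0.37, edgeR adjusted p = 0.16) was 0.29 (SE 0.19) without L2-fKO spleen 4. Tigit, another inhibitory receptor, was at 8.95 to 33.4 in WT and 27.1 to 74.2 in L2-fKO (log2 fold change 0.91, SE 0.43, edgeR adjusted p = 0.195), and the log2 fold change was 0.53 (SE 0.40) without L2-fKO spleen 4. Pdcd1, which encodes PD-1, gave -0.20 (SE 0.44).

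**Figure D3:**
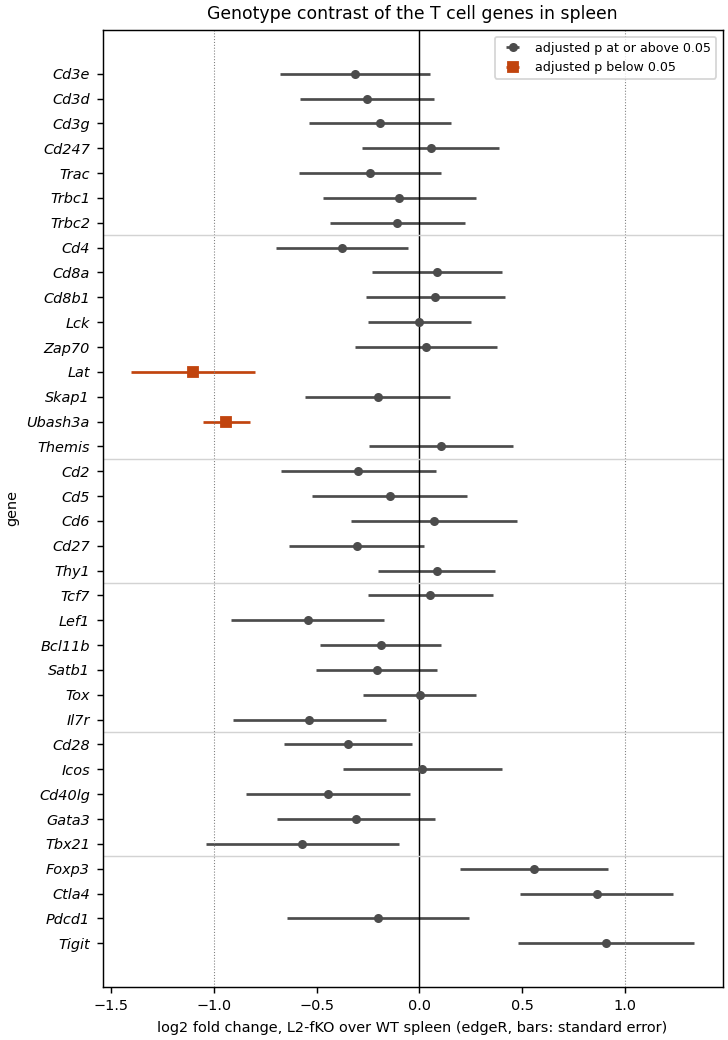
Log2 fold change of L2-fKO over WT spleen for the 36 members, grouped by role, with bars of 1 SE from edgeR. Lat (-1.10) and Ubash3a (-0.94) are the members with an adjusted p below 0.05, and Foxp3, Ctla4 and Tigit have the highest estimates (0.56 to 0.91) with wide errors.

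With both WT spleen 3 and L2-fKO spleen 4 left out, a choice made after seeing the values that itself favours lower levels in L2-fKO, 16 of the 36 members were lower at an adjusted p below 0.05 by edgeR and 0 higher, against 13.8% of 16253 genes lower and 14.5% higher in that fit. The members' median log2 fold change was then -0.69, with 34 of 36 below 0, and Cd3e was at -0.88 (SE 0.12, edgeR adjusted p = 0.00244). Without WT spleen 3 alone, 3 members were lower (Lat, Lef1 and Ubash3a, against 7.46% of all genes) and 0 higher (against 8.99%), with a median of -0.43. Without L2-fKO spleen 4 alone, 2 were lower (against 9.2%) and 0 higher (against 8.94%), with the same median, while without WT spleen 1 the median was 0.03 and without L2-fKO spleen 3 it was -0.03. With sex as a covariate in all 8 libraries the median was -0.32, with 32 of 36 below 0. With the number in the label as a block it was -0.52, with 33 of 36 below 0. In that fit L2-fKO spleen 4 was alone in its block and so did not inform the genotype contrast. WT spleens 3 and 4 shared a block with L2-fKO spleen 3. The medians over all genes were -0.03 with the block, and -0.02 with sex and without both libraries. With the block 2 members were lower, against 10.1% of all genes, and 0 higher, against 10.6%. Over all fits made, 14 members had log2 fold changes below 0 in every one: Lat, Ubash3a and 12 others. Among the 12 were Cd3e (-0.88 to -0.15), Cd4 (-0.86 to -0.19) and Lef1 (-1.02 to -0.27). Ctla4 and Tigit were above 0 in every fit. The fits reuse the same libraries and are not independent. The share of all genes on one side of 0 in every fit was not computed, so these counts have no baseline.

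To set each gene against the T cell content of its own library, its normalised count was expressed as a percentage of the sum of Cd3e, Cd3d, Cd3g and Cd247, given as a description with no test. This sum was 3816.59, 3248.67, 1266.22 and 3142.18 in WT and 2396.75, 2063.59, 1700.04 and 3796.11 in L2-fKO spleens. Of the 32 members outside the sum, 27 had mean log2 ratios within 0.5 of each other in the 2 genotypes, and the ranges overlapped for 28. The groups were apart for 2 higher and 2 lower genes, where 2.22% and 2.84% of all tested genes were apart in those directions. In genes that do not follow T cell content the ratio adds the spread of the Cd3 sum, so these shares are not a like baseline for the members. Without the ratio the shares over all tested genes were 9.61% and 10.8%.

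Foxp3 was at 3.16%, 3.08%, 4.08% and 2.99% of the Cd3 sum in WT and at 4.79%, 4.72%, 5.24% and 6.22% in L2-fKO spleens. Every L2-fKO value was above every WT value, at a ratio of 1.58. Tigit was at 0.667%, 0.808%, 0.706% and 1.06% in WT and at 1.13%, 1.56%, 2.49% and 1.95% in L2-fKO, again without overlap, at a ratio of 2.15 and on few counts. Ctla4 had a log2 difference of 0.83, and overlapped through WT spleen 3, at 4.40% against 2.61% to 4.90% in L2-fKO.

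Lat was at 40.3%, 54.0%, 60.8% and 51.4% of the Cd3 sum in WT and at 28.6%, 25.5%, 25.6% and 26.1% in L2-fKO spleens. On this scale the groups were apart and the L2-fKO libraries lay close together, at a ratio of 0.517. Cd4 was at 40.1%, 38.3%, 47.5% and 37.8% in WT and at 37.4%, 37.2%, 30.4% and 35.0% in L2-fKO, a separation of small size (log2 difference -0.22). Cd8a had a log2 difference of larger size, 0.26, as had Cd8b1, 0.27, and both overlapped. Cd8a was at 32.3% to 37.4% in WT and 36.9% to 48.9% in L2-fKO, and overlapped through WT spleen 3 and L2-fKO spleen 3. Ubash3a overlapped as well, at 16.9% to 54.6% and 10.3% to 19.7%. The α chain gene Trac had a log2 difference of 0.00 between the 2 genotypes.

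**Figure D4:**
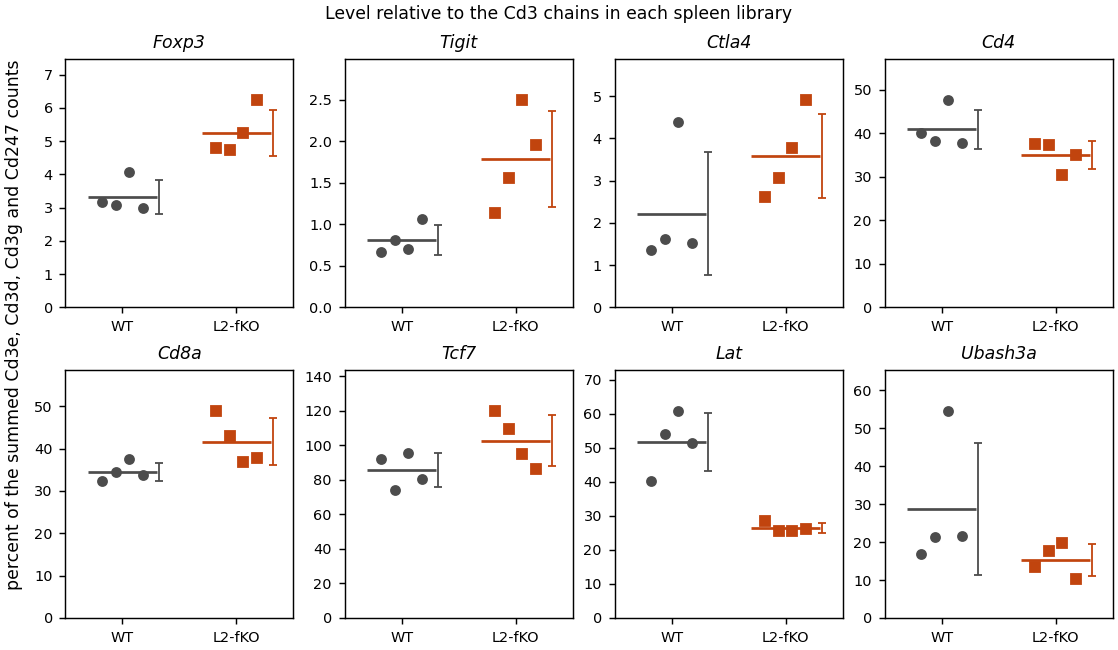
Normalised count of 8 members as a percentage of the summed Cd3e, Cd3d, Cd3g and Cd247 in the same library, for 4 WT and 4 L2-fKO spleens, with the mean (line) and SD (bar). Foxp3, Tigit, Lat and Cd4 have ranges that do not meet, whereas Ctla4, Cd8a, Tcf7 and Ubash3a overlap, Ctla4 because of WT spleen 3 (4.40%).

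Other T cell lists are given by their counts in the spleen by edgeR at an adjusted p below 0.05, where 6.89% of all tested genes were higher and 6.51% lower. Of 12 further genes of regulatory T cells 3 were higher and 0 lower, and 4 did not overlap and were higher, against 9.61% of all genes. Their log2 fold changes had a median of -0.17, with 5 above and 7 below 0. The genes named next have the smallest adjusted p and are all among the 5. Ikzf4, which encodes EOS, a partner of FOXP3, was at 31.8 to 72.8 normalised counts in WT and 93.8 to 248 in L2-fKO (log2 fold change 1.53, SE 0.35, edgeR adjusted p = 0.0182). Its lowest L2-fKO value, 93.8, was in L2-fKO spleen 4, the library with the highest Foxp3 (236). The other higher genes were Nrp1, a receptor also made by vessels and dendritic cells, at 0.89 (SE 0.17, edgeR adjusted p = 0.00827) and Itgae, an integrin chain, at 0.85 (SE 0.22, edgeR adjusted p = 0.0319). Tnfrsf9, the costimulatory receptor 4-1BB, did not overlap, at 49.7 to 133 in WT and 136 to 254 in L2-fKO, and did not pass the test (log2 fold change 0.83, SE 0.31, edgeR adjusted p = 0.108).

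Of 9 further inhibitory receptor genes 1 was higher, Cd244a, at 149.6 to 274 in WT and 481 to 816 in L2-fKO (log2 fold change 1.47, SE 0.23, edgeR adjusted p = 0.00342). Of 5 tested γδ T cell genes Trdc, the δ chain constant region, was lower, at 120.3 to 167 in WT and 38.8 to 101 in L2-fKO (log2 fold change -1.26, SE 0.31, edgeR adjusted p = 0.028). None of 8 naive T cell homing genes and none of 5 tested immature thymocyte genes passed by edgeR. At an unadjusted p below 0.05 there were 1 and 0, against 29% of all tested genes. Among markers of other cells, 0 of 8 B cell genes passed (median log2 fold change -0.45) and 1 of 7 NK cell genes was lower, Klrb1c, while all 8 neutrophil markers were lower with a median of -2.14. The B cell genes had 0 with an unadjusted p below 0.05, against the same 29%. Of 8 macrophage markers 1 was higher, Adgre1 (log2 fold change 0.87), 3 of 8 stromal fibroblast markers were higher, of 8 dendritic cell markers Batf3 was higher and Cd209a lower, and of 9 tested erythroid markers 0 passed by edgeR and 1 had an unadjusted p below 0.05. The part of these other cells' RNA in the values of the T cell genes was not tested.

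Levels between genes were compared per length, as TPM computed from the counts and annotated exon lengths. In WT spleen the highest member was Trbc2, at 109.5, followed by Trac at 59.1, Tcf7 at 50.7, Trbc1 at 48.8, Cd2 at 43.8 and Lck at 37.6. Lat was at 28.1 in WT and 14.8 in L2-fKO, and Ubash3a at 3.37 and 1.90. The lowest members were Tigit, Themis, Ctla4 and Foxp3, at 1.39, 1.35, 1.25 and 1.10 in WT. In the spleen the log2 fold changes of members with the UAUUUAU motif had a median of -0.31, with 4 of 13 above 0, and those of members without it -0.11, with 9 of 23 above 0. Over all tested genes the medians were 0.05 with and -0.03 without the motif.

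In the ovary the Cd3 chains were low or not listed, while some other members had values above those of the spleen. Per length, Cd3g was at 0.270 TPM in WT ovary and 16.3 in WT spleen, whereas Tcf7 was at 84.9 and 50.7, Satb1 at 9.72 and 5.42 and Skap1 at 6.82 and 3.31, scales set in tables normalised separately. The values deposited for the ovary are normalised counts, tested with limma on log2(value + 1), a scale that understates the change of low genes. Of the 36 members, 13 were not listed, among them Cd3e, Cd3d, Cd8a and Cd8b1, and the table lists no gene with fewer than 61 reads in total. Cd3g was at 9.73, 10.03 and 8.26 in WT and 12.5, 19.5 and 17.1 in L2-fKO ovaries, and the difference did not pass the test (log2 fold change 0.73, SE 0.33, limma adjusted p = 0.315). Trac was at 154 to 323 in WT and 179 to 254 in L2-fKO (log2 fold change 0.09, SE 0.29).

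By limma 1 of the 23 tested members was higher in L2-fKO ovaries at an adjusted p below 0.05, Cd4, and 0 were lower, against 1.23% and 0.351% of all tested genes. At an unadjusted p below 0.05 there were 5, against 16.8%. The members' median log2 fold change was 0.26, with 17 of 23 above 0, compared with -0.00 over all genes. The groups did not overlap for 7 higher members (Cd3g, Cd4, Zap70, Skap1, Satb1, Tox and Gata3) and 1 lower (Tcf7), where 13.2% and 12% of all genes had such patterns.

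Cd4 (chr6:124864692-124888221, minus strand, ENSMUSG00000023274) was at 60.8, 46.8 and 56.0 normalised counts in WT and at 189.6, 315 and 229 in L2-fKO ovaries. Every L2-fKO library was more than 3 times the highest WT library. It rose from 54.5 ± 7.13 to 245 ± 64.4 (SD, n = 3 each), with a log2 fold change of 2.12 (SE 0.23, limma adjusted p = 0.00933). The adjusted p by limma was 0.0688 without WT ovary 2 and 0.0621 without WT ovary 3, with log2 fold changes of 2.02 and 2.14. In the spleen the estimate for Cd4 was -0.38, and a difference between the organs was not tested. Zap70 was at 45.02 to 49.3 in WT and 75.1 to 111 in L2-fKO (log2 fold change 1.01, SE 0.22, limma adjusted p = 0.08), and Gata3, which is also made by other ovarian cells, at 65.7 to 115 and 156 to 246 (1.02, SE 0.28, limma adjusted p = 0.134). Both passed at an adjusted p below 0.05 in DESeq2 on the recovered reads, at 0.00873 and 0.0145. The share of all genes passing by DESeq2 in the ovary was not computed.

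Markers of macrophages and of several other cells had log2 fold changes mostly above 0 in the ovary, as Cd4 had. All 8 macrophage markers were above 0 (median 0.74), with summed levels of 2949.66 to 3368.15 in WT and 4633.54 to 6327.01 in L2-fKO. Of these 8, Hmox1 alone passed the test by limma (log2 fold change 0.91, SE 0.10, adjusted p = 0.0111). C1qa was at 383, 317 and 319 in WT and 829, 790.2 and 484 in L2-fKO, at 1.01 (SE 0.21, limma adjusted p = 0.0726). The summed erythroid markers were also higher, at 5680.39 to 9433.86 in WT and 11903.9 to 21175.6 in L2-fKO. The median log2 fold change was 0.70 for 6 tested B cell markers, 0.40 for 5 megakaryocyte markers and -0.76 for 4 neutrophil markers. In the spleen all 8 macrophage markers were likewise above 0 (median 0.44), where Cd4 was at -0.38. The part of these cells' RNA in the higher Cd4 of the ovary was not tested. Lat and Ubash3a, lower in the spleen, had log2 fold changes of 0.22 (SE 0.37) and -0.37 (SE 0.33) in the ovary.

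**Figure D5:**
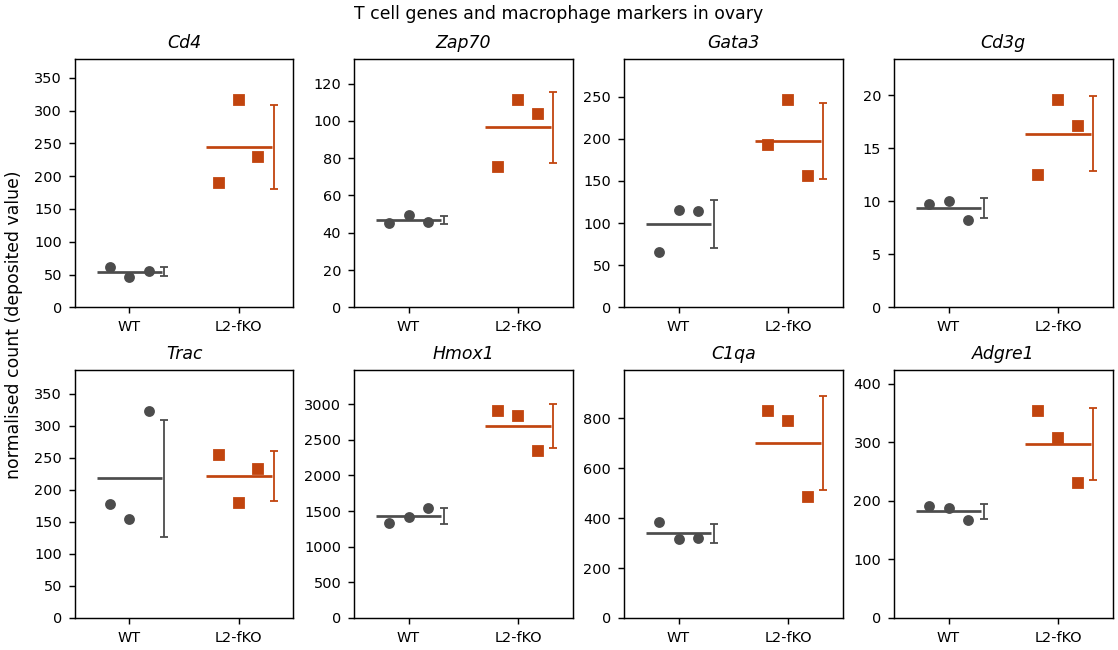
Deposited normalised counts of 5 T cell genes and 3 macrophage markers in the 3 WT and 3 L2-fKO ovary libraries, with the mean (line) and SD (bar). Cd4 lies at 46.8 to 60.8 in WT and 189.6 to 315 in L2-fKO, with no overlap, and Trac overlaps.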

How the data were processed

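Poly(A) RNA-seq libraries of 8 spleens and 6 ovaries were analysed. The authors trimmed reads with Trimmomatic 0.36, aligned them to GRCm38 with STAR 2.5.2b and counted genes with featureCounts of Subread 1.5.2. For the spleen the authors deposited raw counts per gene. For the ovary the authors deposited counts divided by DESeq2 size factors, a normalised signal, from which whole reads were recovered (100.0% of values whole within 0.001). Another 16 per-sample columns and the authors' columns of fold changes and p-values were not used.

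Spleen counts were fitted with edgeR 4.0.16 (TMM, quasi-likelihood F test) after keeping genes that reached 10 counts in 4 or more of the 8 libraries. Normalised counts are counts scaled to the mean TMM library size, and the SE is derived from the F statistic. Ovary values were tested with limma 3.58.1 (trend) on log2(value + 1) for genes that reached 10 in 3 or more of the 6 libraries. Adjusted p values are Benjamini-Hochberg over all genes tested, and a gene was called at an adjusted p below 0.05 with an absolute log2 fold change above 1. Sex was not in the main model. Groups were taken from the labels, in which the knockout is also written L2-cKO and the spleen source reads organoid. A WT spleen whose label repeats the number 3 was taken as replicate 4 and kept the number 3 in the replicate block. Bcl11b, named Rit1 in the tables, was matched by identifier. 3′UTRs were read from the longest annotated transcript end on GRCm38. Alternatives were DESeq2 1.42.0, other size factors and filters, sex as a covariate, males alone, a replicate block, other pseudocounts and each library left out. Scripts were tested on simulated data. All 36 members are named, values per library are given for members at an adjusted p below 0.05 and for Cd3e, Cd4, Cd8a, Il7r, Tcf7, Foxp3 and Ctla4, and of each other list up to 4 genes with the smallest spleen adjusted p are named. Hmox1 and C1qa, named in the ovary, were chosen after their values were seen. A marker gene of the original lists is not reported here. The members and lists were chosen with earlier results of these data known.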

Additional observations from a re-analysis of the deposited data

Results flagged for a closer look

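In 7 of 72 groups of 4 spleen libraries, 1 library was far from the others, with a gap to its nearest neighbour, as a share of the group's range, above Dixon's critical value, and chance gives about 1 in 20 such groups. WT spleen 3 was low in 4 of them: Cd3g at 440.3 normalised counts (0.864 of the range), Trbc2 at 648 (0.867), Cd8b1 at 319 (0.876) and Tox at 166 (0.856). L2-fKO spleen 4 was high in the other 3: Zap70 at 767 (0.853), Icos at 418 (0.873) and Ctla4 at 186 (0.988). The same 2 libraries account for every such group, and the groups are not independent since they share libraries.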

How the results depend on the processing

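Ubash3a was lower at an adjusted p below 0.05 in every alternative, and the log2 fold change of Lat stayed negative in all of them. The count of members called lower (1) was 0 with library totals only, 0 to 1 with single libraries left out, and 3 without both L2-fKO spleen 4 and WT spleen 3, an alternative chosen after seeing the data. The count of lower members (2) was 1 with library totals only, 1 to 3 with single libraries left out, and 16 without both. Of the T cell receptor signalling genes, the lower count (3) was 6 with DESeq2, 6 with every gene, 3 to 8 with single libraries left out and 14 without both, and the higher count (1) was 0 to 1 with single libraries left out. The ovary count of 1 was 3 with DESeq2 and 0 to 1 with single libraries left out. The share of all genes passing was not computed for DESeq2, with every gene or for most single libraries left out. Those counts therefore have no baseline. The cause of these shifts in count was not tested.

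With the replicate block the lower T cell receptor signalling genes were 11, and fold changes turned sign for Cd247 (-0.28), Cd8a (-0.24), Cd8b1 (-0.25), Zap70 (-0.42), Themis (-0.12), Cd6 (-0.36), Thy1 (-0.11), Tcf7 (-0.20), Tox (-0.32) and Icos (-0.50). In the spleen, same-numbered libraries did not all deviate together (correlations -0.145 to 0.183). In the ovary all same-numbered pairs had positive correlations (0.0723 to 0.382), and differently numbered ones ran from -0.326 to 0.184. The main fits took the numbers as pairs in neither organ, although the study describes age-matched pairs of spleens. With the replicate block in the ovary, Cd4 was again the 1 member that was higher at an adjusted p below 0.05 by limma.

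Other reversals with sex as a covariate were Cd247 (-0.059), Cd8a (-0.092), Cd8b1 (-0.12), Zap70 (-0.10), Themis (-0.027), Cd6 (-0.017), Tcf7 (-0.071), Tox (-0.18) and Icos (-0.10). Lck was at 0.025 with library totals, 0.0085 with every gene and 0.019 in males, where Thy1 was at -0.028. Tox was at -0.00107 with DESeq2, -0.00091 with its size factors and -0.0044 with the strict filter. Without both libraries they were Cd247 (-0.40), Cd8a (-0.35), Cd8b1 (-0.36), Zap70 (-0.58), Themis (-0.25), Cd6 (-0.59), Thy1 (-0.30), Tcf7 (-0.33), Tox (-0.38), Icos (-0.66) and Foxp3 (-0.064).

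Ranges with single libraries left out were -0.19 to 0.33 for Cd247, -0.36 to 0.12 for Trbc1, -0.35 to 0.068 for Trbc2, -0.15 to 0.26 for Cd8a, -0.17 to 0.27 for Cd8b1, -0.19 to 0.13 for Lck, -0.38 to 0.20 for Zap70, -0.50 to 0.0066 for Skap1, -0.14 to 0.37 for Themis, -0.56 to 0.063 for Cd2, -0.49 to 0.039 for Cd5, -0.34 to 0.42 for Cd6, -0.15 to 0.22 for Thy1, -0.17 to 0.29 for Tcf7, -0.42 to 0.034 for Satb1, -0.21 to 0.19 for Tox, -0.76 to 0.0082 for Il7r, -0.46 to 0.27 for Icos and -0.50 to 0.19 for Pdcd1.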
